A study of Mus musculus with 48 samples.

Results

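Ik4056 and Ik2709 are 2 short hairpins against Ikzf1, and the 4 libraries of each were compared gene by gene. These 8 libraries were chosen by their titles out of 48 samples of a mouse study of Ikaros in early B-lineage cells, of which 30 are RNA libraries. The same cells carried 2 control constructs, the Ren713 hairpin and an empty vector, with 4 libraries each. All 16 libraries are labelled as polyadenylated RNA of pre-pro-B cells from C57BL/6 mice with the genotype Ebf1(-/-). Both hairpins and both controls therefore lack Ebf1, and every difference below is one within Ebf1-deficient cells. The labels give no age, no culture time and no hairpin sequence, and they do not say whether the 4 libraries of a construct came from separate cultures. P-values thus measure the spread between these libraries, which may be technical.

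Ikaros is a zinc finger protein that binds DNA and recruits chromatin remodelling complexes, and it restrains stem cell, myeloid and other lineage programmes while B-lineage genes are switched on. Pre-pro-B cells without Ebf1 are arrested at the entry to the B lineage and keep the potential to form other blood cells. A short hairpin is cut by the microRNA machinery into a guide RNA that lowers its target message, and a guide can also pair with other messages, so that studies commonly use more than 1 hairpin per gene. The comparison of Ik4056 with Ik2709 asks which genes had different RNA levels when Ikzf1 RNA was lowered to a similar degree.

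The libraries fall into 4 runs of consecutive library numbers, each with 1 library of every construct, and differences were taken within runs. Implied depth was 18.0 to 32.3 M reads with Ik4056, 17.3 to 36.5 M with Ik2709, 18.7 to 34.7 M with Ren713 and 18.1 to 35.3 M with the empty vector. Runs 1 and 2 were shallower than runs 3 and 4 with every construct. The 10 genes listed as pre-pro-B markers were all present, among them Flt3 at 112.4 to 199.3 RPKM and Tcf3 at 117.9 to 172.9 RPKM over the 16 libraries (RPKM divides reads by gene length in kilobases and by M of mapped reads, where M is mega). The listed targets of Ebf1 split: Cd79a was at most 0.196 RPKM, Pax5 at most 0.296 RPKM and Blnk at most 0.504 RPKM, whereas Cd79b read 3.21 to 20.6 RPKM, Igll1 0.371 to 30.5 RPKM and Vpreb1 0.629 to 8.18 RPKM over the 16 libraries. Ebf1 itself read 14.8 to 32.1 RPKM, a sum over the gene model that does not show whether the deleted part was transcribed. In bulk RNA, fewer cells of a type and less RNA per cell cannot be told apart.

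Ikzf1 RNA was low with both hairpins. It stood at 53.2, 23.7, 31.2 and 51.5 RPKM with Ik4056 in runs 1 to 4, and at 51.8, 30.8, 40.8 and 60.6 RPKM with Ik2709. The controls held 141.0, 106.1, 110.5 and 136.2 RPKM with Ren713 and 145.3, 110.0, 111.9 and 138.5 RPKM with the empty vector. All 8 hairpin libraries lay below all 8 control libraries, while the 2 hairpins overlapped. The paired difference, Ik4056 minus Ik2709, was -0.23 ± 0.08 (SE, n = 4 runs) on the log2(RPKM + 1) scale and was not called (limma, adjusted p = 0.0531). The run differences were 0.04, -0.37, -0.37 and -0.23, so Ik4056 was the lower hairpin in 3 of 4 runs and level with Ik2709 in run 1. That p sat at the threshold: it was 0.0426 after quantile normalization, 0.0254 after median-ratio scaling, and 0.00579 without run 1 (log2 -0.32). Similar Ikzf1 RNA is thus a description of run 1, whereas in runs 2 to 4 Ik4056 left somewhat less of it.

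**Figure D1:**
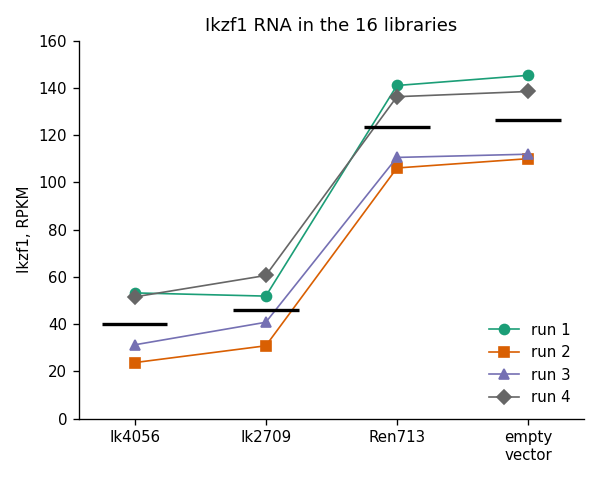
Ikzf1 RNA in RPKM (vertical axis, linear from 0) in the 4 libraries of each construct, with points joined by run and black bars at the mean of each construct. The 8 hairpin libraries sit between 23.7 and 60.6 RPKM, below the control libraries, which start at 106.1 RPKM; the Ik4056 and Ik2709 points overlap.

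Beyond Ikzf1, many genes differed between the 2 hairpins when libraries were compared within runs. Of 10587 genes with at least 1 RPKM in at least 2 of the 8 libraries, 1849 (17.5%) were called at an adjusted p under 0.05, 1272 (12%) higher and 577 (5.45%) lower with Ik4056 (limma with the run as a block). Of the called genes, 617 differed by at least 0.5 and 107 by at least 1 on the log2 scale. The count rests on the pairing by run, since 163 genes were called without the block. The 4 Ik4056 libraries lay entirely above the 4 Ik2709 libraries for 543 genes (5.13%) and entirely below them for 218 genes (2.06%). The control constructs gave a yardstick: 23 of 10324 genes (0.223%) were called between Ren713 and the empty vector, 1 higher and 22 lower with Ren713. Counts at an unadjusted p under 0.05 (limma) lay closer together, with 1473 of 10324 genes between the controls and 3116 of 10587 between the hairpins. Few calls between the controls thus do not mean that they were alike.

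The excess of higher over lower genes depended on scaling, while the number of called genes did not. The share of calls that were higher with Ik4056 was 68.8%, against 52.0% once values were quantile normalized and 54.2% with median-ratio scaling. The median difference over all tested genes was 0.04 on the log2 scale, and -0.02 under either scaling. Without run 2 the number of called genes was 1076.

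**Figure D2:**
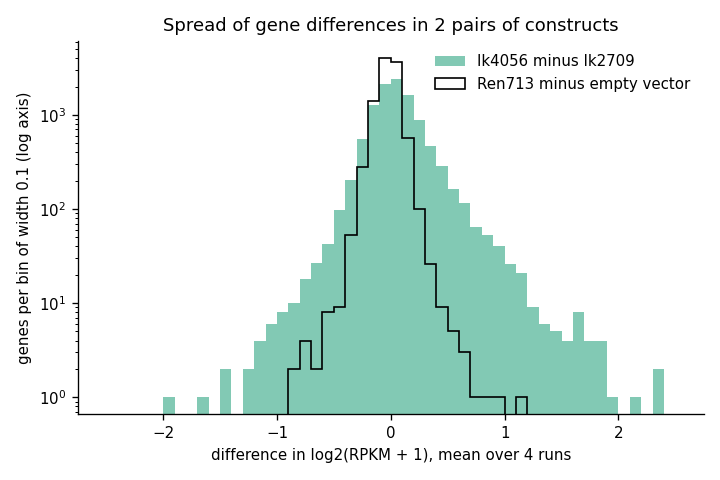
Number of genes (vertical axis, logarithmic) by the mean log2(RPKM + 1) difference over 4 runs (horizontal axis, bins of width 0.1), for Ik4056 minus Ik2709 (filled) and Ren713 minus empty vector (line), over the genes tested between the hairpins. The hairpin differences reach 2.36 and spread wider than those between the control constructs on both sides.

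All 4 runs contributed to the differences. The 1849 called genes had a median absolute difference of 0.48 in run 1, 0.44 in run 2, 0.36 in run 3 and 0.43 in run 4 (log2). For all tested genes it was 0.21, 0.17, 0.15 and 0.16, and between the control constructs 0.08 to 0.09 in every run.

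Those called genes were chosen with all 4 runs, so the direction was also read in runs left out of the fit. Of 1070 genes called higher from runs 2 to 4 alone, 1036 (96.8%) were higher with Ik4056 in run 1 too, with a median log2 difference of 0.49 in run 1. The same median was 0.59 in run 2, 0.30 in run 3 and 0.51 in run 4 for the genes called higher from the other 3 runs. Of 514 genes called lower from runs 2 to 4, 430 (83.7%) were lower in run 1, with a median of -0.32, and the medians of the lower genes were -0.32 in run 2, -0.24 in run 3 and -0.38 in run 4. Over all tested genes 61.3% were higher and 38.6% lower with Ik4056 in that run. With each of the other runs left out in turn, the share of the same direction was 87.6% to 96.6% for higher genes and 81.3% to 97.1% for lower genes.

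Most genes that were higher with Ik4056 also lay above the controls there. Each hairpin was set against the same 8 control libraries, so the 2 control comparisons share samples and are given only side by side. In them, 5478 genes (51%) were called for Ik4056 and 4060 (37.8%) for Ik2709, out of 10744. By direction, 3241 were above and 2237 below the controls with Ik4056, and 2205 were above and 1855 below with Ik2709. Of the 1272 genes higher with Ik4056, 996 were called above the controls and 62 below them with Ik4056, while 437 were above and 324 below with Ik2709. Their median difference from the controls was 0.51 with Ik4056 and 0.04 with Ik2709. Of the 577 lower genes, 77 were above and 387 below the controls with Ik4056, and 196 were above and 71 below with Ik2709. Their medians were -0.28 with Ik4056 and 0.07 with Ik2709. The genes were chosen by their difference in the same hairpin libraries, which favours these sides, so the counts describe them and test nothing.

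The order of the 4 constructs within each run gave the same picture. Ik4056 was the highest of the 4 constructs in all 4 runs for 1358 genes (12.8%) and the lowest for 618 (5.84%). For Ik2709 these numbers were 335 (3.16%) and 537 (5.07%). Among the 1272 genes higher with Ik4056, it was the highest construct in all runs for 862 (67.8%), and Ik2709 was the lowest for 296 (23.3%). Among the 577 lower genes, Ik4056 was the lowest for 296 (51.3%) and Ik2709 the highest for 171 (29.6%). The choice of genes by their difference favours these orders, so the shares describe the called genes and test nothing.

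Genes of the surrogate light chain, which pairs with the immunoglobulin heavy chain in the pre-B cell receptor, had the top differences of all named genes, Igll1 first and Vpreb2 next. Igll1 (lambda5) and its partners Vpreb1 and Vpreb2 lie on chromosome 16 and are known targets of Ebf1 and of E2A, the product of Tcf3. Their promoter windows, from 250 bases before to 50 bases after the start in RefSeq on GRCm38.p6, are shown because the 3 genes moved together; both strands were searched for TGGGAA, a core of Ikaros sites, and CAGGTG, a core of E2A sites, and matches on either strand are in capitals.
Igll1, chr16:16863936-16864235, minus strand: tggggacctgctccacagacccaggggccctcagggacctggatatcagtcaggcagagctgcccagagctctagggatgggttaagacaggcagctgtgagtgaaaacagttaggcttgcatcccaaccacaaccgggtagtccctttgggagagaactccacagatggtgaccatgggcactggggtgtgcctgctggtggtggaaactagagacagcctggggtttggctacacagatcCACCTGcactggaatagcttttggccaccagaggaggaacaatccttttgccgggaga
Vpreb1, chr16:16869206-16869505, minus strand: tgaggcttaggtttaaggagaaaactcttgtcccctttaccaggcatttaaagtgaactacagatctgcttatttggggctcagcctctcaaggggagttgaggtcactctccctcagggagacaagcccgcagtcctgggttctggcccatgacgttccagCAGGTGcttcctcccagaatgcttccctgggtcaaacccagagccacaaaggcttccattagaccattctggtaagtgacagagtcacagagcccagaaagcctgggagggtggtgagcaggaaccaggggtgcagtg
Vpreb2, chr16:17980315-17980614, plus strand: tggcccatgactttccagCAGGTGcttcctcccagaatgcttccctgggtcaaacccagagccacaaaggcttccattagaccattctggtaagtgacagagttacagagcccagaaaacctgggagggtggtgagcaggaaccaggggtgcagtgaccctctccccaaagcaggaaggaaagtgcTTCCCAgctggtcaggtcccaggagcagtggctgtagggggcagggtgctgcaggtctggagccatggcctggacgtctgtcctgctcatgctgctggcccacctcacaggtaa
CAGGTG occurred once in each of the 3 windows, and in 20.2% of 32851 promoter windows of the same table. TGGGAA occurred once, in Vpreb2 as its reverse complement, and in 25.6% of all windows. The Vpreb1 and Vpreb2 windows overlap in sequence with a shift of 144 bases, with 153 of 156 bases identical, so the authors' counting could split reads between these near copies and the separate values of the pair are uncertain.

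Igll1 stood at 30.5, 18.4, 27.4 and 12.7 RPKM with Ik4056, at 4.83, 3.79, 2.63 and 2.35 RPKM with Ik2709, at 0.371 to 0.896 RPKM with Ren713 and at 0.383 to 0.642 RPKM with the empty vector. The 3 levels did not overlap: Ik4056 was highest, Ik2709 intermediate and the controls lowest. The hairpin difference was 2.36 ± 0.14 (adjusted p = 7.81e-07), and the differences from the controls were 3.79 with Ik4056 and 1.43 with Ik2709. Vpreb2 had 5.47, 12.1, 8.27 and 5.55 RPKM with Ik4056 against 0.816, 1.36, 0.835 and 0.734 RPKM with Ik2709 and at most 0.266 RPKM in the controls (2.14 ± 0.12, adjusted p = 2.36e-09). Vpreb1 followed at 8.18, 5.65, 4.64 and 3.79 RPKM with Ik4056 against 2.21, 2.22, 2.20 and 1.69 RPKM with Ik2709 (1.05 ± 0.12, adjusted p = 7.79e-06). Fold changes of such low genes are understated on the log2(RPKM + 1) scale.

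Gene lists were read against the shares over all tested genes, 12% higher and 5.45% lower with Ik4056. List counts rest on the run as a block, and few calls remained without it, as given in the last section. Of 14 tested genes of the B-lineage list, 7 were higher with Ik4056, none lower and 7 not called; the list's median difference was 0.34, against 0.04 over all genes. The summed level of the list was 312 to 388 RPKM with Ik4056 and 246 to 303 with Ik2709, below the 441 to 583 with Ren713 and 404 to 551 with the empty vector. Ly6d held a large part of that gap, at 14.4 to 46.8 RPKM with Ik4056 and 10.8 to 32.0 RPKM with Ik2709. It had 90.9 to 201.9 RPKM with Ren713 and 39.9 to 207.7 RPKM with the empty vector. Members did not all fall: Cd79b had 12.0 to 20.6 RPKM with Ik4056 and 7.72 to 15.3 RPKM with Ik2709. In the controls Cd79b had 3.21 to 5.13 RPKM, and Igll1 and Vpreb1 were also above the controls with both hairpins. Besides Igll1 and Vpreb1, the called members were Dntt (terminal transferase), Cd79b, Ebf1, Foxo1 and Spib. Ebf1 is the deleted gene, so its call does not show a difference in working Ebf1 message. Spib, an Ets factor of B and dendritic cells, had 7.38, 3.54, 4.10 and 4.69 RPKM with Ik4056, 2.90, 1.28, 1.44 and 0.838 RPKM with Ik2709, 2.58 to 5.53 RPKM with Ren713 and 1.73 to 5.78 RPKM with the empty vector. The low libraries here were those of Ik2709: Spib fell by 0.92 against the controls with Ik2709 (adjusted p = 4.7e-05) and differed from them by 0.28 with Ik4056 (adjusted p = 0.0934, not called). The recombinase gene Rag1 (0.10) and Tcf3 (0.08) were not called between the hairpins.

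**Figure D3:**
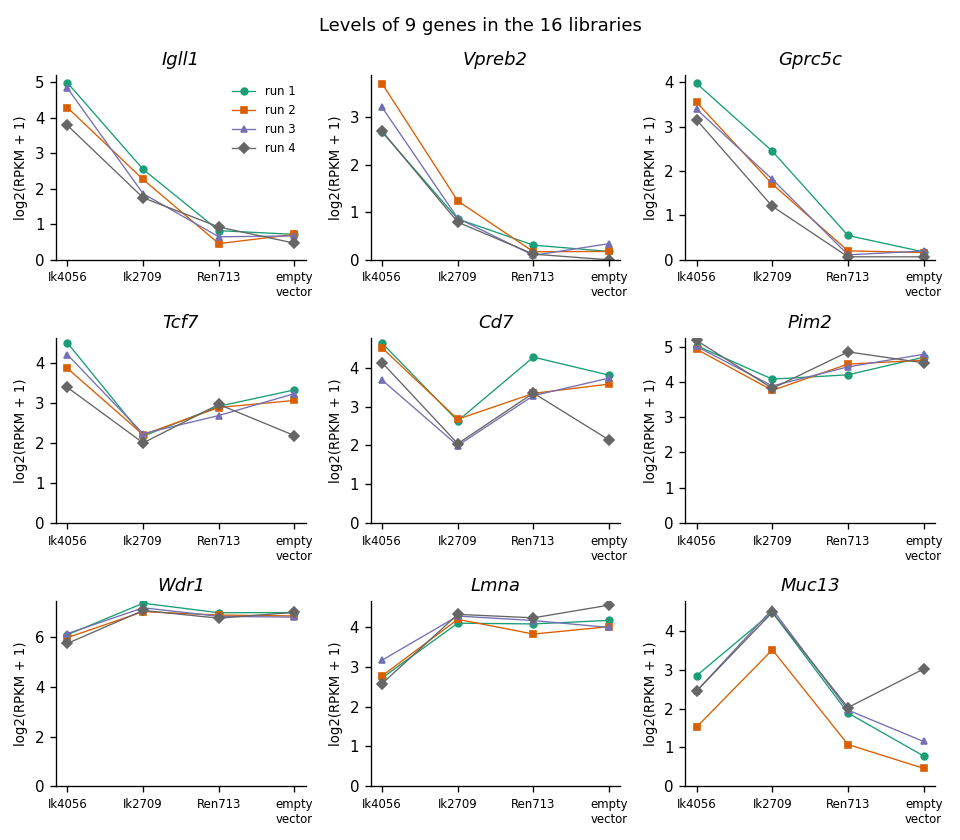
Levels of 9 genes as log2(RPKM + 1) (vertical axes, from 0) in the 16 libraries, with 1 point per library and lines joining the libraries of a run. The top row is highest with Ik4056 and intermediate with Ik2709. Within runs, the middle row is above the controls with Ik4056 and below them with Ik2709, except Cd7 in run 3. There Ik4056 (11.8 RPKM) lies just below the empty vector (12.3 RPKM). In the bottom row Wdr1 and Lmna are low with Ik4056 while Muc13 is high with Ik2709.

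Most tested T-lineage genes were higher with Ik4056 than with Ik2709. Of 12 tested, 8 were higher, none lower and 4 not called, with a list median of 0.47. The summed level of the list was below the controls with both hairpins, at 333 to 572 RPKM with Ik4056 and 313 to 427 with Ik2709, against 651 to 872 with Ren713 and 620 to 996 with the empty vector. Thy1, also a member of the stromal list below, made up most of that sum with both hairpins. The sum therefore says little about the other members, and Cd28 and Cd4 were above the controls with both hairpins. Tcf7, which encodes the T-cell factor TCF-1, had 21.8, 13.6, 17.6 and 9.52 RPKM with Ik4056, 3.52, 3.63, 3.72 and 3.02 RPKM with Ik2709, 6.59, 6.43, 5.46 and 6.84 RPKM with Ren713, and 9.08, 7.40, 8.45 and 3.56 RPKM with the empty vector. No Ik4056 library overlapped any other construct, and the Ik2709 libraries lay below every control library except that of the empty vector in run 4, which stood apart from the other 3. Tcf7 differed by 1.84 ± 0.13 between the hairpins (adjusted p = 4.16e-07), and from the controls by 1.08 with Ik4056 (adjusted p = 8.25e-05) and -0.76 with Ik2709 (adjusted p = 0.00216). Cd28, a costimulatory receptor, was above the controls with both hairpins and reached 16.2, 13.3, 15.6 and 10.8 RPKM with Ik4056 against 8.14, 4.45, 6.84 and 7.22 RPKM with Ik2709 (0.98 ± 0.12, adjusted p = 2.93e-05). Cd4, the coreceptor of helper T cells, stayed low, with 1.73 to 3.36 RPKM with Ik4056 against 0.552 to 1.23 RPKM with Ik2709 (0.89 ± 0.11, adjusted p = 1.4e-05). Lck, Zap70, Lat, Gata3 and Cd2 made up the rest of the called members. The T-cell receptor genes Cd3d, Cd3e and Cd3g were among 8 of 20 list members that stayed under 1 RPKM in all 8 hairpin libraries.

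In the list of natural killer and innate lymphoid genes, 10 of 11 tested members were higher with Ik4056, with a median of 0.66. Their summed level was 215 to 272 RPKM with Ik4056, 135 to 173 with Ik2709, 155 to 219 with Ren713 and 148 to 188 with the empty vector. The exception was Prf1 (perforin), which was lower (-0.33). The list had 1 lower call without run 1, and the Prf1 call was lost without run 2, 3 or 4. Cd7, an immunoglobulin superfamily receptor of lymphoid progenitors, T and natural killer cells, had 23.8, 21.8, 11.8 and 16.5 RPKM with Ik4056 against 5.19, 5.38, 2.99 and 3.12 RPKM with Ik2709. Most controls lay between, at 18.3, 9.12, 8.72 and 9.18 RPKM with Ren713 and at 13.0, 11.0, 12.3 and 3.41 RPKM with the empty vector. The Cd7 difference was 1.90 ± 0.10 between the hairpins (adjusted p = 7.82e-10). Against the controls it was 0.80 with Ik4056 (adjusted p = 0.0166), a call lost without run 1 (adjusted p = 0.057) or run 2 (adjusted p = 0.0828), and -1.10 with Ik2709 (adjusted p = 0.00412). Nfil3, a factor needed for innate lymphoid cells, had 41.5, 34.6, 42.6 and 37.8 RPKM with Ik4056 against 23.5, 20.1, 22.6 and 20.0 RPKM with Ik2709 and at most 16.5 RPKM in the controls (0.83 ± 0.07, adjusted p = 3.49e-07). Il18r1, the interleukin-18 receptor chain, overlapped between the hairpins at 17.0 to 32.7 RPKM with Ik4056 and 9.30 to 18.3 RPKM with Ik2709, yet it was higher in every run (0.77 ± 0.09, adjusted p = 6.34e-06). Ncr1 and Klrb1c, which define natural killer cells, stayed under 1 RPKM in all 8 hairpin libraries.

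Markers of other blood cells moved between the hairpins as well, and their part in the lymphoid results was not tested. Of 7 tested granulocyte genes 4 were higher and 1 lower with Ik4056, and the summed level of the list was 848 to 1371 RPKM with Ik4056, 543 to 1322 with Ik2709, 49.5 to 136.1 with Ren713 and 38.6 to 98.9 with the empty vector. The late granule genes S100a8, S100a9, Mmp8 and Chil3 were at 0 in all 8 hairpin libraries, and 12 of 19 list members were under 1 RPKM there. Prtn3, the primary granule protease proteinase 3, carried most of that sum. It had 958, 1015, 1061 and 625 RPKM with Ik4056 against 694, 829, 597 and 331 RPKM with Ik2709 and at most 26.9 RPKM in the controls (0.62 ± 0.10, adjusted p = 0.00027), a call lost with all 16 libraries in 1 fit (adjusted p = 0.154). Both hairpins thus sat far above the controls, Ik4056 a little further. Ltf (lactoferrin) was higher with Ik4056 at far lower levels, at 2.62 to 7.24 RPKM with Ik4056 against 0.552 to 2.30 RPKM with Ik2709 (1.18 ± 0.11, adjusted p = 3.73e-07).

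Among 18 tested monocyte, macrophage and dendritic cell genes, 6 were higher and 4 lower with Ik4056, so this list split. The summed level was 772 to 1110 RPKM with Ik4056, 642 to 877 with Ik2709, 376 to 603 with Ren713 and 347 to 545 with the empty vector. Siglech, a marker of plasmacytoid dendritic cells, was higher at 1.24 to 3.92 RPKM with Ik4056 against 0.267 to 0.711 RPKM with Ik2709 (1.16 ± 0.13, adjusted p = 9.54e-06). Cx3cr1, the fractalkine receptor, was higher too, at 8.21 to 16.1 RPKM with Ik4056 against 4.34 to 8.52 RPKM with Ik2709 (0.71 ± 0.09, adjusted p = 2.75e-05). In contrast, Cd14, the lipopolysaccharide coreceptor of monocytes, had 1.72, 2.89, 2.46 and 1.51 RPKM with Ik4056 against 7.20, 7.37, 5.83 and 3.21 RPKM with Ik2709 and at most 0.275 RPKM in the controls (-1.11 ± 0.12, adjusted p = 7.42e-06). Csf1r, Adgre1 and Fcgr1 were the other lower members. Without run 2 the list had 1 lower call.

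The remaining cell lists were small or little expressed. Of 8 tested erythroid and megakaryocyte genes 4 were higher and 1 lower (2 higher without run 2 or run 4), for example Car2 at 2.94 to 8.36 RPKM with Ik4056 against 1.68 to 3.59 RPKM with Ik2709. Their summed level was 153 to 193 RPKM with Ik4056, 145 to 195 with Ik2709, 131 to 158 with Ren713 and 136 to 179 with the empty vector, while Slc4a1, Car1 and Ppbp were at 0 in the hairpin libraries. The mast cell list had 1 tested gene, the basophil protease Mcpt8, which was higher (0.53 ± 0.10, adjusted p = 0.00127); 14 of its 15 members were under 1 RPKM. Of 12 stromal genes 3 were higher and none lower, while without run 4 the number of higher calls was 10 (median 0.48). That list was dominated by Thy1, at 201.8 to 369.7 RPKM with Ik4056 and 227.3 to 317.7 RPKM with Ik2709, with Dcn and Postn at 0. Sparc, a matrix protein, was the most different at 3.25 to 9.73 RPKM with Ik4056 against 2.34 to 4.75 RPKM with Ik2709 (0.75 ± 0.13, adjusted p = 0.000981).

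The 15 genes highest with Ik4056 included several with no list. Mrgpra1, a G protein-coupled receptor, had 11.2, 7.60, 5.42 and 7.68 RPKM with Ik4056 against 0.861, 1.71, 1.45 and 1.54 RPKM with Ik2709 and at most 0.105 RPKM in the controls (1.89 ± 0.20, adjusted p = 0.000405). Gprc5c, an orphan receptor, showed the same order at 14.7, 10.7, 9.48 and 7.88 RPKM with Ik4056, 4.45, 2.26, 2.51 and 1.30 RPKM with Ik2709 and at most 0.462 RPKM in the controls (1.72 ± 0.10, adjusted p = 3.74e-09). For both, each hairpin was above the controls and Ik4056 further above. Prss2 (1.67) and C1qtnf1 (1.68) were likewise highest with Ik4056, with differences from the controls of 2.13 and 1.96 with Ik4056 and of 0.46 and 0.28 with Ik2709, that of C1qtnf1 with Ik2709 not called (adjusted p = 0.0707).

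Stum, Igf2 and Tspan9 were above the controls with Ik4056, while their differences from the controls with Ik2709 were not called. Stum had 18.8, 17.1, 9.41 and 17.7 RPKM with Ik4056 against 4.63, 3.01, 2.13 and 4.50 RPKM with Ik2709, 2.76 to 5.43 RPKM with Ren713 and 2.78 to 5.88 RPKM with the empty vector (1.87 ± 0.10, adjusted p = 1.02e-09). Igf2, an insulin-like growth factor, had 7.66, 7.57, 15.1 and 3.52 RPKM with Ik4056 against 1.08, 0.969, 4.14 and 0.604 RPKM with Ik2709 (1.83 ± 0.12, adjusted p = 1.08e-08). Run 3 was the highest run for Igf2 with every construct, and the groups overlapped only through it. Differences from the controls with Ik2709 were -0.13 for Stum, 0.06 for Igf2 and 0.08 for Tspan9.

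St3gal6, Sema7a, Dlk1 and Pim2 took opposite sides of the controls with the 2 hairpins. St3gal6, a sialyltransferase, had 12.8, 17.9, 10.6 and 11.2 RPKM with Ik4056 against 2.93, 3.90, 3.21 and 2.92 RPKM with Ik2709, 4.23 to 5.22 RPKM with Ren713 and 3.01 to 6.01 RPKM with the empty vector (1.72 ± 0.10, adjusted p = 3.22e-09). Sema7a, a membrane-anchored semaphorin, had 11.5, 11.4, 8.49 and 13.8 RPKM with Ik4056 against 3.07, 2.61, 1.81 and 3.52 RPKM with Ik2709 (1.72 ± 0.09, adjusted p = 1.63e-09). Dlk1, a Delta-like protein of progenitors, had 34.6, 37.9, 35.5 and 23.2 RPKM with Ik4056 against 11.9, 7.39, 8.64 and 11.0 RPKM with Ik2709 (1.65 ± 0.20, adjusted p = 0.0042). For Dlk1 the call between the hairpins was lost without run 1 (log2 1.72, adjusted p = 0.0804), although the 2 groups of libraries did not overlap. Pim2, a survival kinase induced through STAT5, had 31.6, 29.3, 31.1 and 35.1 RPKM with Ik4056 against 15.9, 12.5, 13.8 and 13.1 RPKM with Ik2709, 17.4 to 27.8 RPKM with Ren713 and 22.3 to 26.5 RPKM with the empty vector (1.15 ± 0.08, adjusted p = 3.01e-08).

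**Figure D4:**
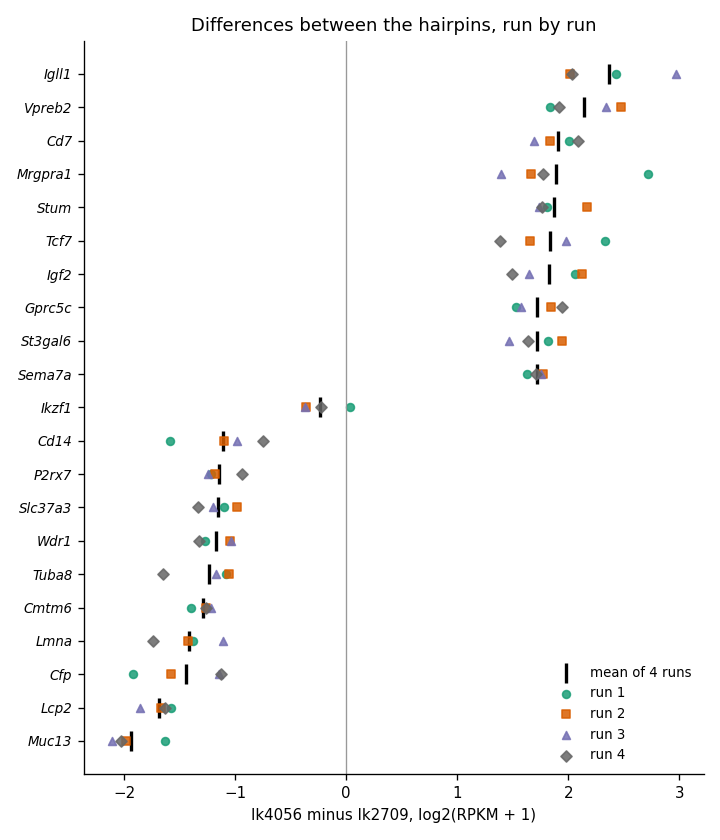
Differences between the hairpins, Ik4056 minus Ik2709 in log2(RPKM + 1) (horizontal axis), in each of the 4 runs (symbols) with their mean (bars), for the 10 named genes highest and the 10 lowest with Ik4056, and Ikzf1. Every one of the 20 genes has all 4 runs on the same side of 0, while Ikzf1 runs between -0.37 and 0.04.

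Among the genes lowest with Ik4056, some lay below the controls with Ik4056 and some lay above them with Ik2709. Wdr1, Cmtm6, Lcp2 and Cd300lb were called for both. Wdr1, which helps cofilin to take actin filaments apart, had 68.0, 62.6, 70.2 and 53.2 RPKM with Ik4056 against 165.5, 130.7, 145.6 and 135.0 RPKM with Ik2709, 108.5 to 126.6 RPKM with Ren713 and 111.8 to 128.0 RPKM with the empty vector. Its hairpin difference was -1.17 ± 0.07 (adjusted p = 7.91e-09), made up of -0.90 from the controls with Ik4056 and 0.27 with Ik2709. Lmna, the nuclear lamin A/C gene, had 5.61, 5.85, 8.00 and 4.98 RPKM with Ik4056 against 16.2, 17.4, 18.4 and 19.0 RPKM with Ik2709 and 13.2 to 22.5 RPKM over the 8 control libraries (-1.41 ± 0.10, adjusted p = 2.86e-08). The Ik2709 libraries lay within the range of the controls, and no Ik4056 library did. Cmtm6, a membrane protein that stabilises PD-L1, had 20.6, 16.6, 20.7 and 17.3 RPKM with Ik4056 against 55.9, 41.2, 49.4 and 42.8 RPKM with Ik2709 (-1.29 ± 0.07, adjusted p = 2.36e-09). Tpst1, a tyrosylprotein sulfotransferase, had 0.959 to 1.89 RPKM with Ik4056 against 3.27 to 4.67 RPKM with Ik2709 and 3.39 to 7.19 RPKM over the controls (-1.08 ± 0.11, adjusted p = 1.5e-06). Slc37a3 and the tubulin gene Tuba8 showed the same order, at -0.85 and -0.97 from the controls with Ik4056 and at 0.30 and 0.27 with Ik2709, neither of the last 2 called (adjusted p = 0.275 and 0.44). Without the empty vector library of run 4 the Slc37a3 difference with Ik2709 was called (log2 0.46, adjusted p = 0.00693). The Tuba8 call against the controls with Ik4056 was lost without run 2 (log2 -0.89, adjusted p = 0.0703).

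Muc13, Lcp2, Cfp, Lgmn, Itgb5, P2rx7 and Gem were above the controls with Ik2709. Muc13, a transmembrane mucin, had 6.21, 1.88, 4.47 and 4.47 RPKM with Ik4056 against 21.3, 10.4, 22.6 and 21.3 RPKM with Ik2709, 1.10 to 3.07 RPKM with Ren713, and 0.714, 0.376, 1.22 and 7.10 RPKM with the empty vector. This was the lowest named difference, at -1.94 ± 0.10 (adjusted p = 7.82e-10). The empty vector library of run 4 stood apart for Muc13, and without it the difference from the controls was 1.02 with Ik4056 (adjusted p = 7e-07; with it 0.78, adjusted p = 0.0555) and 2.96 with Ik2709 (with it 2.71). Lcp2, the SLP-76 adaptor of T-cell receptor signalling, had 1.85, 1.14, 0.974 and 1.31 RPKM with Ik4056 against 7.50, 5.80, 6.13 and 6.19 RPKM with Ik2709 (-1.68 ± 0.10, adjusted p = 4.96e-09). It differed from the controls by -0.40 with Ik4056 and by 1.29 with Ik2709. Lcp2 thus ran against the T-lineage list, of which it is not a member.

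Cfp (properdin, of the complement system) was lower with Ik4056 (log2 -1.44), at 8.60 to 21.5 RPKM with Ik4056 against 35.3 to 64.7 RPKM with Ik2709. Lgmn (a lysosomal protease) differed by -1.04 and the integrin chain Itgb5 also by -1.04; from the controls they differed by 0.23 and 0.42 with Ik4056, and by 1.27 and 1.46 with Ik2709. The ATP-gated channel P2rx7 had 2.02 to 3.26 RPKM with Ik4056 against 6.15 to 7.72 RPKM with Ik2709 and at most 1.95 RPKM in the controls (-1.15 ± 0.10, adjusted p = 3.73e-07). Gem, a small GTPase, had 9.77, 19.6, 9.02 and 25.5 RPKM with Ik4056 against 22.1, 30.0, 28.9 and 51.5 RPKM with Ik2709 (-1.06 ± 0.13, adjusted p = 0.000446). Runs 2 and 4 were high for Gem with every construct, so the hairpins overlapped over the libraries and not within a run. Cd300lb, an activating receptor of myeloid cells, was lower with Ik4056 (-1.06 ± 0.11, adjusted p = 1.73e-06), at -0.59 from the controls with Ik4056 and 0.47 with Ik2709.

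More glycolysis genes were lower than higher with Ik4056. Of 21 tested, 9 were lower, 2 higher and 10 not called, with a list median of -0.18 against 0.04 over all genes. Pgk1, Pfkp, Hk2, Ldha, Eno1, Slc2a1, Tpi1, Pkm and Aldoa were the lower members. Ldha, which makes lactate, averaged 624.7 RPKM with Ik4056 against 824.3 RPKM with Ik2709, 867.3 RPKM with Ren713 and 835.6 RPKM with the empty vector (-0.41 ± 0.09, adjusted p = 0.00385), so Ik4056 was the low construct. Pgk1, phosphoglycerate kinase, had 35.3, 32.2, 51.1 and 35.8 RPKM with Ik4056 against 65.6, 46.6, 95.5 and 42.9 RPKM with Ik2709 (-0.63 ± 0.10, adjusted p = 0.000376). The control constructs differed in Pgk1 as well, at 38.9, 33.3, 53.6 and 35.6 RPKM with Ren713 against 78.1, 61.7, 130.0 and 43.6 RPKM with the empty vector (log2 -0.85, adjusted p = 0.202, not called). The muscle enolase Eno3 went the other way, at 26.1 to 43.7 RPKM with Ik4056 against 18.9 to 25.2 RPKM with Ik2709 (0.53 ± 0.09, adjusted p = 0.00026), as did Hk1. Ldha is a list member outside the naming rule, picked after its values were seen, and without run 1 there were 5 lower calls in the list and without run 2 or run 4 there were 6.

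The list of ATF4 and unfolded protein response genes had 7 lower and 1 higher of 22 tested, with a median of -0.15, and its count varied with the runs used. The lower members were Mthfd2, Psat1, Asns, Trib3, Slc7a5, Shmt2 and Aars. Mthfd2, a mitochondrial folate enzyme, had 43.8, 47.3, 50.0 and 53.4 RPKM with Ik4056 against 58.2, 58.2, 66.3 and 72.7 RPKM with Ik2709 (-0.38 ± 0.07, adjusted p = 0.000721). Psat1, of serine synthesis, had 72.6, 118.5, 139.6 and 79.5 RPKM with Ik4056 against 121.2, 149.6, 141.2 and 101.0 RPKM with Ik2709 (-0.36 ± 0.09, adjusted p = 0.0176). Its call was lost without run 1 (log2 -0.23, adjusted p = 0.0649) and without run 2 (log2 -0.36, adjusted p = 0.0973). The chaperone gene Hspa5 (0.04) and Atf4 itself (0.09) were not called. Lower calls in the list numbered 1 without run 1, 3 without run 2 and 4 without run 4.

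**Figure D5:**
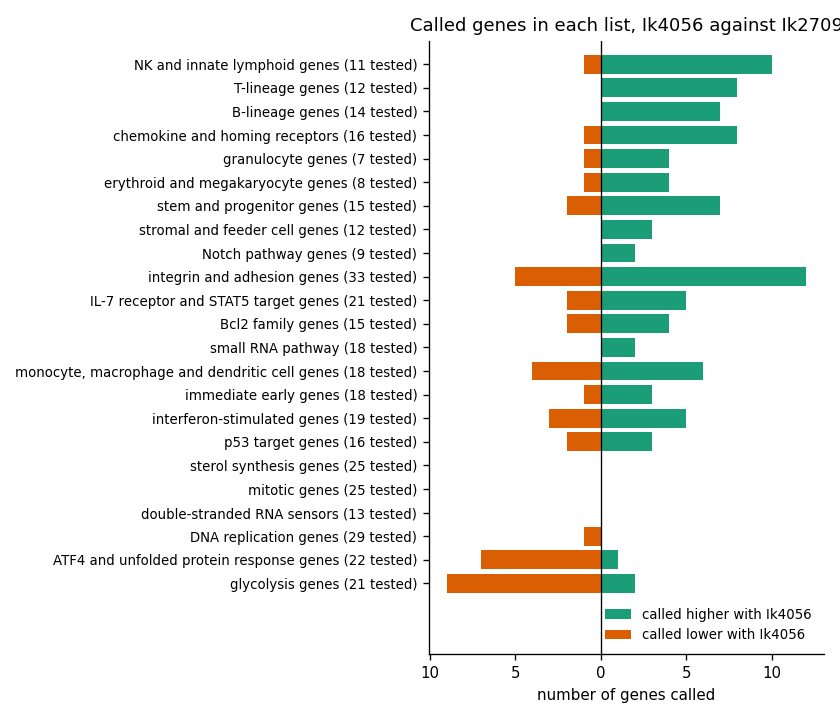
Number of genes called higher (right, green) and lower (left, orange) with Ik4056 than with Ik2709 in the 23 lists with at least 5 tested genes; the number tested stands beside each name. Natural killer, T-lineage and B-lineage genes lie at the top with 10, 8 and 7 higher calls, and glycolysis genes at the bottom with 9 lower calls.

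Homing receptors and adhesion genes were called in both directions, more of them higher than lower. Of 16 chemokine and homing receptors 8 were higher and 1 lower (median 0.19; 6 and 3 after quantile normalization). Cxcr3, a receptor for interferon-induced chemokines, had 16.2, 23.9, 10.4 and 12.9 RPKM with Ik4056 against 7.46, 9.52, 4.28 and 4.99 RPKM with Ik2709 and at most 1.60 RPKM in the controls (1.15 ± 0.09, adjusted p = 6.19e-08). Ccr9, the receptor for a thymus and gut chemokine, was below the controls with both hairpins. It had 13.9, 6.37, 6.28 and 4.37 RPKM with Ik4056 and 4.80, 1.66, 3.05 and 2.27 RPKM with Ik2709, against 9.72 to 25.4 RPKM with Ren713 and 13.1 to 32.0 RPKM with the empty vector (1.10 ± 0.13 between the hairpins, adjusted p = 9.8e-06). Of 33 integrin and adhesion genes 12 were higher and 5 lower (median 0.08). Parvb, a focal adhesion adaptor, was higher at 2.68 to 4.51 RPKM with Ik4056 against 1.05 to 1.53 RPKM with Ik2709 (1.06 ± 0.11, adjusted p = 2.78e-06), and the integrin chain Itgb3 was higher at 0.63. The higher calls among adhesion genes numbered 5 without run 2 and 7 without run 4, and 8 higher stood beside 6 lower after median-ratio scaling.

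Progenitor and cytokine genes gave mixed lists. Of 15 stem and progenitor genes 7 were higher and 2 lower; higher calls numbered 4 without run 1 and 2 without run 2 or run 4, and 3 after median-ratio scaling. Mycn was below the controls with both hairpins and less so with Ik4056, at 42.5, 22.5, 29.8 and 37.9 RPKM with Ik4056 against 29.0, 13.5, 22.3 and 28.8 RPKM with Ik2709 (0.50 ± 0.08, adjusted p = 0.000173). Kit, the stem cell factor receptor, was lower at 42.5, 25.8, 29.8 and 48.5 RPKM with Ik4056 against 56.8, 31.4, 61.0 and 98.1 RPKM with Ik2709 (-0.67 ± 0.13, adjusted p = 0.00931), a call lost with all 16 libraries in 1 fit (adjusted p = 0.153). Lmo2, a haematopoietic LIM-domain factor, was lower at 32.3 to 44.1 RPKM with Ik4056 against 47.3 to 62.1 RPKM with Ik2709, and above the controls with both (-0.42 ± 0.07, adjusted p = 0.000637). Of 21 genes of the IL-7 receptor and STAT5 pathway 5 were higher and 2 lower (3 and 1 without run 2). Pim2 and the repressor Bcl6 (0.59) were among the higher ones and the cytokine Osm (-0.57) was lower, whereas Il7r itself differed by -0.01 and was not called.

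Smaller lists held single genes of interest. Of 9 Notch pathway genes 2 were higher, with 4 higher calls without run 3 and 1 without run 2 or run 4. Hes1, a Notch-induced repressor, had 1.70, 2.55, 2.77 and 2.60 RPKM with Ik4056 against 0.766, 0.330, 0.551 and 0.783 RPKM with Ik2709 (1.08 ± 0.13, adjusted p = 1.3e-05). Nrarp (0.40) was the other, a call lost without run 2 (log2 0.34, adjusted p = 0.126) and without run 4 (log2 0.35, adjusted p = 0.0836). Of 15 Bcl2 family genes 4 were higher and 2 lower, against 1 higher and 2 lower without run 2. Bmf, a death-promoting BH3-only gene, had 18.2, 7.62, 11.4 and 9.74 RPKM with Ik4056 against 8.35, 2.22, 5.00 and 3.80 RPKM with Ik2709 (1.17 ± 0.10, adjusted p = 1.77e-07). Another BH3-only gene, Pmaip1, was higher by 0.45, a call lost without run 2 (log2 0.39, adjusted p = 0.0746).

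Pathways that respond to hairpin RNA were examined as a group of their own. None of 13 tested sensors of double-stranded RNA was called at an adjusted p under 0.05 (limma; 1 had an unadjusted p under 0.05; median 0.03), with differences from -0.22 for Irf7 to 0.26 for Tlr7; without run 1 there was 1 lower call. Of 19 interferon-stimulated genes 5 were higher and 3 lower, with a median of 0.08. Ifitm3, an antiviral membrane protein, was far above the controls with both hairpins, at 428, 541, 401 and 339 RPKM with Ik4056 and 282, 446, 280 and 235 RPKM with Ik2709, against 43.6 to 108.8 RPKM with Ren713 and 34.6 to 101.0 RPKM with the empty vector (0.48 ± 0.08 between the hairpins, adjusted p = 0.00029). Oas1a was higher (0.54) at levels near the filter of 1 RPKM, with 0.464 to 2.88 RPKM with Ik4056 against 0.234 to 1.46 RPKM with Ik2709. The guanylate-binding protein Gbp3 was lower (-0.46), and the Gbp3 call was lost without run 2 (log2 -0.39, adjusted p = 0.0777). The interferon list had 3 higher and 6 lower calls after quantile normalization, 3 and 4 without run 1, and 3 and 0 without run 2, so it had no settled direction. Of 18 genes of the small RNA pathway 2 were higher, a share near the 12% over all genes. They were Mov10 (0.41 ± 0.08, adjusted p = 0.00078) and Tnrc6a (0.33 ± 0.10, adjusted p = 0.0319). The Tnrc6a call was lost without run 1 (log2 0.22, adjusted p = 0.185) and without run 2 (log2 0.33, adjusted p = 0.13). Dicer1 (0.00), Drosha (-0.07) and Ago2 (-0.19) were not called.

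Cell division and lipid synthesis showed few differences. None of 25 mitotic genes (median 0.01) and none of 25 sterol synthesis genes (median -0.02) was called by limma, while 2 and 4 of them had an unadjusted p under 0.05. Of 29 DNA replication genes 1 was called, Rrm2 of ribonucleotide reductase (-0.29 ± 0.08, adjusted p = 0.0122), a call lost without run 4 (log2 -0.24, adjusted p = 0.105). Largest among the mitotic genes were 0.23 for Prc1 and -0.21 for Ect2. Without run 3 there were 2 higher calls among the mitotic genes, and the sterol list had 1 higher call without run 1 and 1 lower call without run 2. These values do not show that the hairpins act alike on division. Of 16 p53 target genes 3 were higher and 2 lower, a count that was 0 and 1 without run 2 and 4 and 0 without run 4. Of 18 immediate early genes 3 were higher and 1 lower, or 2 and 3 without run 1, while Egr1 (-0.95) and Fos (-0.91) had larger differences that were not called. In the Ikaros family, 1 of 3 tested genes was called. Ikzf4 (Eos) was higher with Ik4056, at 4.11, 2.72, 3.07 and 6.12 RPKM with Ik4056 against 2.52, 1.83, 2.44 and 3.48 RPKM with Ik2709 (0.46 ± 0.11, adjusted p = 0.00591), a call lost without run 4 (log2 0.39, adjusted p = 0.0576).

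Few genes were called between the control constructs, and the largest called difference was smaller there, at 0.71 against 2.36 between the hairpins. Called differences as a class were not: 6 of 23 control calls reached 0.5, against 617 of 1849 hairpin calls. Between Ren713 and the empty vector the called genes with the largest differences were Pcyox1l (-0.71), Sec11c (-0.61), Baz2a (-0.58), Serp2 (-0.54) and Fmr1 (-0.53), with Slc1a4 (0.39) the single gene higher with Ren713. Pcyox1l had 30.5, 29.3, 28.0 and 25.2 RPKM with Ren713 against 48.5, 49.9, 53.7 and 37.3 RPKM with the empty vector. No called gene reached a log2 difference of 1 there, against 107 between the hairpins.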

How the data were processed

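Messenger RNA of 16 pre-pro-B libraries was analysed. The other 14 RNA libraries of the series and its chromatin samples were not used here. The deposited values are RPKM per gene model, computed by the authors; the submitters' processing notes name the mm9 genome, DESeq 1.8.3, HTSeq 0.5.3 and TopHat 1.4.1, with roles not given in the sources used here. Of 21025 gene models, 20662 were matched to a symbol by accession and 169 by the symbol in the files. Depth was implied from the RPKM step of 1 read.

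From these, log2(RPKM + 1) was fitted with the run as a block in limma (version 3.58.1, under R version 4.3.3) with trended, robust moderation and a two-sided Benjamini-Hochberg adjusted p under 0.05, over genes with at least 1 RPKM in 2 libraries; the hairpin fit has 3 residual degrees of freedom and the fit with controls 9. All adjusted p-values are from limma. The replicate numbers follow consecutive library numbers: deviations of same-run hairpin libraries from their group means correlated at 0.53 to 0.90 across genes (4 pairs, median 0.76), so the libraries were treated as paired. The median between runs was -0.30 (12 pairs). Centring on group means pushes the between-run values below 0 when same-run values are positive, so they are no separate evidence of pairing. No 2 libraries held identical values. The fits were tested on simulated data.

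The hairpins, the 25 gene lists and the naming rule were chosen with earlier results of these data known. Named genes are Ikzf1, the 15 largest called differences each way with the same direction in 4 runs and at least 3 RPKM in the higher hairpin, up to 3 called members per list, and 5 each way between controls, without predicted genes. List members outside the rule are named with their call. A few genes are not reported here. Promoters are from RefSeq (GRCm38.p6). Tables were made with pandas 2.3.3 and numpy 2.4.6 under Python 3.11.15, plots with matplotlib 3.10.9.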

Additional observations from a re-analysis of the deposited data

Results flagged for a closer look

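Of 81 genes examined, Ikzf1 and the named genes, 10 were called on opposite sides of the same 8 control libraries by the 2 hairpins. The test of the difference itself is the comparison of the hairpins (limma, adjusted p under 0.05 for each). Many named genes were chosen for a large difference between the hairpins, which favours opposite sides. The share over all tested genes was not counted, so the 10 genes are a description and test nothing. Ik4056 minus Ik2709 was 1.90 for Cd7, 1.84 for Tcf7, 1.72 for St3gal6, 1.72 for Sema7a, 1.65 for Dlk1 and 1.15 for Pim2, and it was -1.06 for Cd300lb, -1.17 for Wdr1, -1.29 for Cmtm6 and -1.68 for Lcp2. Examples of the differences from the controls are 1.28 with Ik4056 and -0.44 with Ik2709 for St3gal6, 1.01 and -0.64 for Dlk1, 0.45 and -0.69 for Pim2, and -0.99 and 0.29 for Cmtm6. For Tcf7, St3gal6, Pim2, Cd300lb, Wdr1, Cmtm6 and Lcp2 both control calls held with each run left out in turn, with the empty vector library of run 4 left out, and under both scalings. The exceptions were Cd7 with Ik4056 (adjusted p = 0.057 without run 1 and 0.0828 without run 2), Sema7a with Ik2709 (0.0643 without run 1 and 0.0992 without run 3) and Dlk1 with Ik2709 (0.0585 without run 3).

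For none of the 81 genes examined, Ikzf1 included, did 1 of the 4 run differences lie far enough from the other 3 to pass Dixon's critical value for groups of 4. Chance alone gives about 1 such result in 20 groups of 4.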

How the results depend on the processing

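Between Ik4056 and Ik2709, 163 genes were called without the replicate block (131 higher, 32 lower, all among the 1849), 1076 to 1929 with a run left out, and 617 with a log2 difference of at least 0.5; the other settings, pseudocounts of 0.1 and 5, no filter, a filter of 3 RPKM in 4 libraries, quantile and median-ratio scaling, plain moderation and all 16 libraries in 1 fit, gave 1266 to 2407. Of the 80 named genes none changed sign under the settings in which it was tested (66 were tested under the filter of 3 RPKM and 78 to 79 with a run left out), and 49 lost their call without the block. List calls without the block were 2 higher of 14 B-lineage, 2 of 12 T-lineage and 2 of 11 natural killer genes. The glycolysis list and the ATF4 list then had 0 calls in either direction. Ikzf1 was called under a filter of 3 RPKM (-0.23, adjusted p = 0.0465), quantile normalization (-0.25), median-ratio scaling (-0.29) and without run 1 (-0.32; -0.32 to -0.19 with a run left out). Between Ren713 and the empty vector, 23 calls became 0 without the block (limma, 45 genes at an unadjusted p under 0.05), 0 without a filter (1651 such genes), 51 under the filter of 3 RPKM, 4 under plain moderation, 9 in 1 fit of 16 libraries, 6 at a log2 difference of at least 0.5 and 3 to 76 with a run left out. Against the controls, calls without the block were 2031 for Ik4056 and 1254 for Ik2709. Without the empty vector library of run 4, an alternative chosen after seeing the data, they were 5283 and 3919. The cause of these changes was not tested. Only RPKM values were used, so no count test was run, and differences of genes near 1 RPKM are limited by depth, which was lower in runs 1 and 2.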
